A study of Drosophila melanogaster with 12 samples.

Results

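Ribosomal proteins are the protein subunits of the ribosome, and most are made from 1 gene in the fruit fly Drosophila melanogaster. A few exist as paralogues, which are duplicated genes that encode near copies of the same protein. In flies 1 copy of such a pair is commonly used throughout the body, while the other is enriched in the germline of the ovary or the testis. The 8 genes described here form 4 such pairs. RpS10a, RpS19b, RpL22-like and RpL10Aa are the germline-enriched copies, and RpS10b, RpS19a, RpL22 and RpL10Ab are their general partners. They were taken by name from a list of duplicated genes, and all 8 were present among the 14405 genes of the count table, 12759 of which are protein-coding.

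The flies were whole females of 2 genotypes, measured by Ribo-Seq and by RNA-Seq. Ribo-Seq sequences the RNA fragments that ribosomes shield from RNase I, called footprints here, after cycloheximide was added to hold ribosomes in place. The mutants, written Polr3D EY/+, carried the P-element insertion EY22749 (in the labels dC53EY22749) in 1 copy of Polr3D, a subunit gene of Pol III, the RNA polymerase that makes tRNAs and other short RNAs. The wild-type flies were White Dahomey, and the study backcrossed the insertion into that outbred background. The libraries used were 3 mutant and 3 wild-type for Ribo-Seq, and 3 mutant and 2 wild-type for RNA-Seq. Wild-type replicate 3, which the study removed, was not analysed here in RNA-Seq. Age was not given in the sources used here. Each library came from pooled whole flies, and nothing in the labels says whether replicates were separate rearings, so p-values measure the spread between these libraries, which may be technical.

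Ribo-Seq libraries held 1127599 to 3192166 counts in protein-coding genes, and RNA-Seq libraries held 24299908 to 28718489. These were 1.9% to 3.67% of all counts in Ribo-Seq but 99.02% to 99.2% in RNA-Seq. Levels are therefore given as counts per 1000000 counts of protein-coding genes (CPM), and between genes as CPM per kilobase of transcript (RNA) or of coding sequence (footprints). Polr3D itself had 30.4, 29.6 and 30.5 CPM of RNA in Polr3D EY/+ libraries, against 51.7 and 63.6 CPM in wild-type libraries, a log2 difference of -0.92 (SE 0.25, DESeq2 adjusted p = 0.0294, over the alternatives 7.53e-07 to 1.0). All 3 mutant libraries were lower than both wild-type ones. The 18 female germline markers in the table summed to 3734 to 4047 CPM of RNA in mutants and 3603 to 3997 CPM in wild-type flies, and to 1481 to 1573 CPM of footprints in mutants and 1619 to 1746 CPM in wild-type flies. The 11 testis and male accessory gland markers summed to 0.123 CPM or less in the RNA of both genotypes, except for 21.5 CPM in Polr3D EY/+ replicate 1, where all 11 had counts. In footprints they summed to 0.878, 5.64 and 37.8 CPM in Polr3D EY/+ libraries and to 0.669, 88.7 and 0 CPM in wild-type libraries.

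Each pair encodes 1 position in the ribosome. RpS10 and RpS19 are proteins of the head of the small subunit. RpL10A forms the mobile stalk beside the exit for spent tRNAs on the large subunit, and RpL22 sits on the outer surface of that subunit and binds RNA. In 3 of the 4 pairs the germline-enriched copy is on an autosome and the general copy on the X chromosome (BDGP6 coordinates). RpS10a lies at 3R:27652760-27653363 and RpS10b at X:19598031-19599806, both on the plus strand. RpS19b lies at 3R:23932729-23933530 on the minus strand, and RpS19a at X:16637894-16639249 on the plus strand. RpL22-like lies at 2R:23246610-23247893 and RpL22 at X:762560-765130, both on the minus strand. RpL10A is the exception, with RpL10Aa at 3R:15037366-15038149 and RpL10Ab at 3L:11822851-11824211, both on autosomes and on the plus strand.

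The copies also differ in structure. In the transcript of each gene with the highest mean CPM over all libraries of both assays, RpS10a and RpL10Aa had 0 introns, where their general partners RpS10b and RpL10Ab had 2 each. RpL22-like had 1 intron and RpL22 had 2, and RpS19b and RpS19a both had 2. Protein lengths stayed close within a pair: 163 residues for RpS10a and 160 for RpS10b, 155 for RpS19b and 156 for RpS19a, 216 for RpL10Aa and 217 for RpL10Ab. The widest gap was between RpL22-like, at 312 residues, and RpL22, at 299.

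The 4 germline-enriched copies were scarce in whole females and the 4 general copies were abundant. Each germline-enriched copy held at most 18 counts in any library. The general copies lay at 542.4 to 1352 CPM of footprints and 545.6 to 1732 CPM of RNA over the libraries. By mean level per kilobase RpS19a ranked 89th among protein-coding genes in footprints and 53rd in RNA, RpL10Ab 94th and 80th, RpS10b 152nd and 77th, and RpL22 219th and 184th. In bulk samples such as these, fewer cells of a type and less RNA per cell cannot be told apart.

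**Figure D1:**
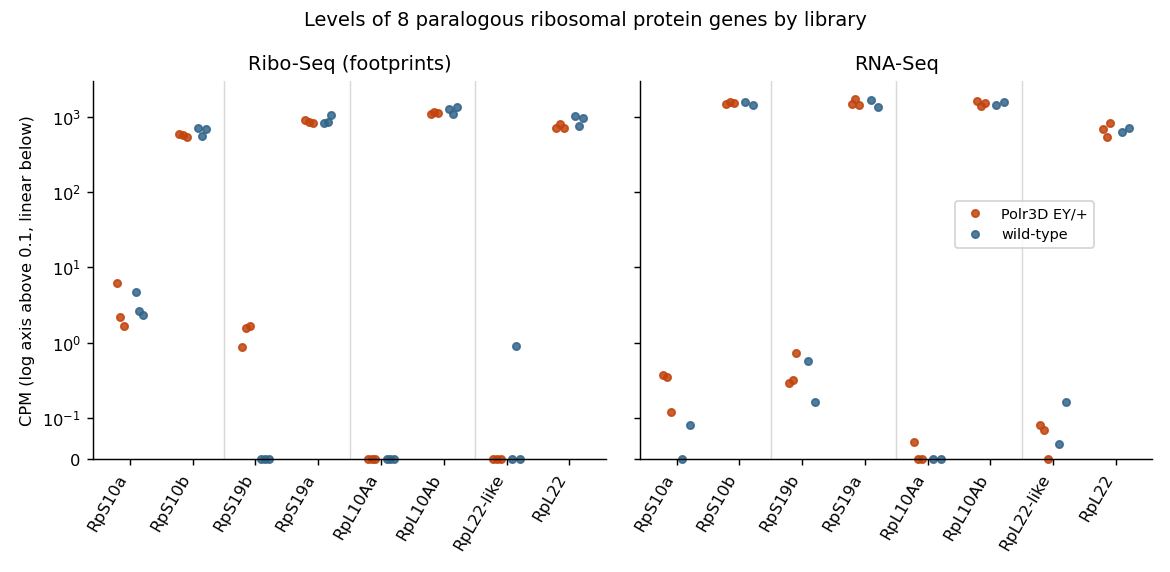
CPM of the 8 genes in each library, footprints on the left and RNA on the right, with the germline-enriched copy of each pair left of its general copy (symmetrical log axis, linear below 0.1). Each point is 1 library, Polr3D EY/+ in orange and wild-type in blue. The general copies lie at 542.4 CPM or more in every library, and all 4 germline-enriched copies lie below 10 CPM.

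The general copies were high in every library of both assays. RpS10b had 592, 576 and 542.4 CPM of footprints in Polr3D EY/+ replicates 1 to 3, against 713, 552 and 682 CPM in wild-type replicates 1 to 3. RpS19a had 900.4, 857 and 818 CPM of footprints in Polr3D EY/+ libraries, against 836, 865 and 1050.0 CPM in wild-type libraries. RpL10Ab had 1101, 1168 and 1112 CPM of footprints in Polr3D EY/+ libraries, against 1269, 1078 and 1352 CPM in wild-type libraries, and RpL22 had 721, 795 and 717 CPM, against 1013, 766 and 958 CPM. For each of the 4 the genotypes overlapped. Wild-type replicate 2 was the lowest of the wild-type libraries for RpS10b, RpL10Ab and RpL22.

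In RNA, RpS10b had 1474, 1579 and 1521 CPM in Polr3D EY/+ libraries, against 1586 and 1448 CPM in wild-type libraries, and RpS19a had 1490.0, 1732 and 1452 CPM, against 1663 and 1373 CPM. RpL10Ab had 1604, 1396 and 1552 CPM of RNA in Polr3D EY/+ libraries, against 1457 and 1586 CPM in wild-type libraries. RpL22 had 681, 546 and 836 CPM of RNA in Polr3D EY/+ libraries, against 625 and 714 CPM in wild-type libraries, the widest spread of the 4 relative to its mean. The genotypes again overlapped for each. RpL22 was also the only one of the 4 with more CPM of footprints than of RNA in most same-numbered pairs of libraries, the exception being Polr3D EY/+ replicate 3.

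How Salmon divided counts among the transcripts of a gene differed between the assays for the general copy RpS10b. In footprints, 87.25% to 94.42% of its counts were given to FBtr0344339, a transcript of 651 nucleotides, while in RNA 98.53% to 98.91% were given to FBtr0074731, of 743 nucleotides. Its 4 annotated transcripts have a coding sequence of 1 length, 480 nucleotides. For the other general copies 1 transcript held most of the counts in both assays, with 99.5% of footprint counts and 98.3% of RNA counts for RpS19a, 99.5% and 98.7% for RpL10Ab, and all counts for RpL22, which has 1 transcript. Gene sums do not depend on this division.

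**Figure D2:**
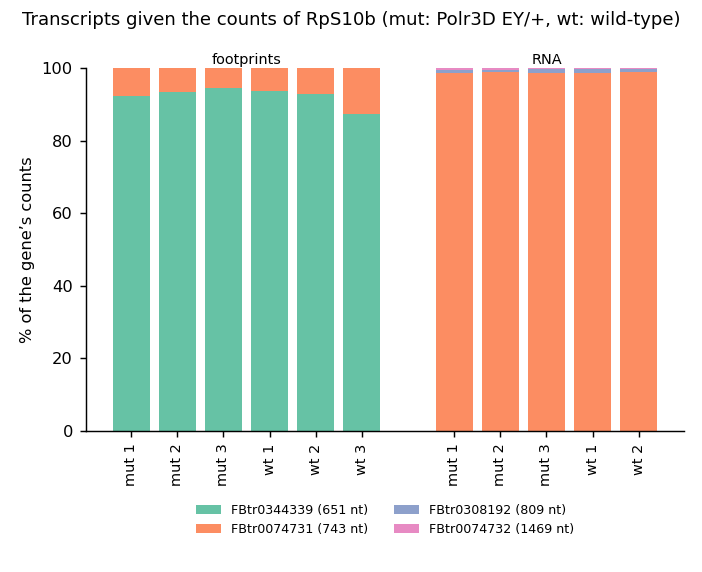
Share of the counts of RpS10b given to each annotated transcript, as stacked bars that sum to 100% in each library (mut, Polr3D EY/+; wt, wild-type). The shortest transcript takes at least 87.25% of footprint counts, and the next longer one takes at least 98.53% of RNA counts.

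RpS10a, an intronless gene, was barely detected, yet was assigned a larger share of the counts of its pair in footprints than in RNA. It had 7, 7 and 2 footprint counts in Polr3D EY/+ libraries and 7, 3 and 3 in wild-type libraries, against 675, 1839 and 645 counts of RpS10b in Polr3D EY/+ libraries and 1067, 622 and 894 in wild-type libraries. In RNA it had 9, 10 and 3 counts in Polr3D EY/+ libraries and 0 and 2 in wild-type libraries, beside 35428 to 45356 counts of RpS10b. Every footprint library had a larger share than every RNA library, but a single count of RpS10a in a footprint library would be enough for that. Summed over libraries, RpS10a was 0.503% of the footprint counts of the pair (29 counts, 95% Wilson interval 0.350% to 0.721%) and 0.0121% of its RNA counts (24 counts, interval 0.00812% to 0.0180%). Intervals and floors here cover counting error only, not errors in how Salmon assigned reads between similar copies. The part of RpS10b reads assigned to RpS10a was not tested in either assay.

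The ratio of RpS10a to RpS10b was higher in footprints by 6.004 on the log2 scale with a pseudocount of 0.5 counts (two-sided exact permutation p = 0.00433, the smallest that 6 against 5 libraries allow, and 0.0152 after Benjamini-Hochberg adjustment over the 7 pair tests run). This separation was fixed by depth, since RpS10b had far fewer counts in footprints. With 0 footprint counts of RpS10a the pseudocount alone would have put every footprint library above every RNA library. The test on the log2 ratio therefore cannot decide, and the difference is read only from the summed shares and their counting intervals. As a share of the pair with no pseudocount, an alternative chosen after seeing the data, the difference was 0.518 percentage points (exact permutation p = 0.00433). There, a single count in each footprint library is enough to separate the assays. With wild-type replicate 3 left out of Ribo-Seq the log2 difference was 6.101 (exact permutation p = 0.00794). It was 9.741 when the 1 transcript of each copy with the highest mean CPM was used alone. For RpS10b that transcript held 98.7% of the RNA counts but 7.5% of the footprint counts, so this value carries Salmon's division of counts. Of 7623 protein-coding genes averaging 10 counts or more in both assays, the ratio to RpS10b did not overlap between the assays for 73.0%, and it was higher in every footprint library for 67.2%, so separation alone is not particular to RpS10a. Between genotypes the ratio in footprints differed by 0.06 on the log2 scale (exact permutation p = 0.9, where 3 against 3 allow no less than 0.1). In RNA, the 22 counts of the 3 Polr3D EY/+ libraries and the 2 counts of the 2 wild-type libraries give 0.283 and 0.0382 CPM, a ratio of 7.39 with an exact 95% counting interval of 1.82 to 64.9. DESeq2 gave this difference a log2 change of 3.13 with an unadjusted p of 0.0180 and an adjusted p of 1.0. The change was 1.755 (unadjusted p = 0.298 in DESeq2) without wild-type replicate 1 and 6.075 without wild-type replicate 2, where the wild-type RNA library left had 0 counts. Male markers summed to 21.5 CPM in Polr3D EY/+ replicate 1, which had 9 counts of RpS10a, and to 0 in Polr3D EY/+ replicate 2, which had 10. The part of male RNA in the counts of RpS10a was not tested.

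RpS19b had few counts, and its footprints came from Polr3D EY/+ libraries alone. It had 1, 5 and 2 footprint counts in Polr3D EY/+ libraries and 0 in each of the 3 wild-type libraries, while the general copy RpS19a had 973 to 2736 in Polr3D EY/+ libraries and 975 to 1376 in wild-type libraries. The 5 counts came from the deepest Ribo-Seq library. Set against a floor of 3 counts over the wild-type group, the Polr3D EY/+ level of RpS19b was 1.90-fold. This value leaves out the counting error of the Polr3D EY/+ counts, so it is not a lower limit. DESeq2 gave the footprint difference an unadjusted p of 0.13 and an adjusted p of 1.0. Male marker footprints were highest in wild-type replicate 2, which had 0 of RpS19b, and lowest in wild-type replicate 3, which also had 0. Their part in the counts of RpS19b was not tested. In RNA it had 7, 9 and 18 counts in Polr3D EY/+ libraries and 16 and 4 in wild-type libraries, which overlap. Its share of the pair was 0.0959% of footprint counts (Wilson interval 0.0486% to 0.189%) and 0.0267% of RNA counts (0.0205% to 0.0349%). The shares of single libraries overlapped between the assays, at 0% to 0.205% in footprints and 0.0119% to 0.0499% in RNA.

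With the same pseudocount, the log2 ratio of RpS19b to RpS19a differed by 1.86 between footprints and RNA (exact permutation p = 0.0217, adjusted 0.0505), but this value rests on the pseudocount. The 3 wild-type footprint libraries, with 0 counts of RpS19b, have log2 ratios of -11.29, -10.93 and -11.43, all above the RNA mean of -11.97, since RpS19a had far fewer counts in footprints. With a pseudocount of 5 the difference was 3.664. With wild-type replicate 3 left out of Ribo-Seq it was 2.128 (exact permutation p = 0.0238). As a share of the pair with no pseudocount the difference had an exact permutation p of 0.286. The counting intervals of the summed shares did not overlap, but the shares of single libraries did, unlike those of RpS10a. For this reason no difference between the assays is read for this pair. For 62.3% of genes the ratio to RpS19a did not overlap between the assays, and for 48.9% it was higher in every footprint library. Between genotypes the ratio in RNA differed by 0.32 on the log2 scale (exact permutation p = 0.8, where 3 against 2 allow no less than 0.2). No pair could pass the 0.05 threshold between genotypes at these sizes.

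RpL22-like and RpL10Aa were at or near 0 in every library. RpL22-like had 0 footprint counts in all 3 Polr3D EY/+ libraries and 0, 1 and 0 in wild-type libraries, and in RNA 2, 2 and 0 counts in Polr3D EY/+ libraries and 1 and 4 in wild-type libraries. RpL10Aa had 1 count in all, in the RNA of Polr3D EY/+ replicate 1, the library with the most male marker RNA. The single RpL22-like footprint fell in wild-type replicate 2, the one with the most male marker footprints. The RNA library with the most RpL22-like counts, wild-type replicate 2, had 0.123 CPM of male markers. The part of male RNA in these counts was not tested. The general partners of both genes were among the most abundant genes, so the pairs were almost wholly RpL22 and RpL10Ab in these females. The 0 of 11192 footprint counts of the RpL10A pair allow a share of RpL10Aa of up to 0.0268%. No test was run for either pair, because the germline-enriched copy was at or under 3 counts in every footprint library.

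Among the 4 general copies, RpS19a had the highest level per kilobase in both assays. In footprints it had 1897 ± 180.3 CPM per kilobase, followed by RpL10Ab at 1830 ± 168, RpS10b at 1270 ± 148 and RpL22 at 924 ± 141 (SD, n = 6). In RNA it had 2477 ± 242 CPM per kilobase, followed by RpS10b at 2039 ± 82.5, RpL10Ab at 2018 ± 118.5 and RpL22 at 618 ± 97.9 (SD, n = 5). In footprints the only neighbours in that order to overlap were RpS19a and RpL10Ab, and in RNA RpS10b and RpL10Ab. RpL22 was thus the lowest of the 4 in both assays.

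RpL22 had the most footprints per RNA of the 4, as the ratio of the 2 levels per kilobase in libraries of the same genotype and number. Its ratio was 1.30, 1.79 and 1.05 in Polr3D EY/+ replicates 1 to 3, against 1.99 and 1.32 in wild-type replicates 1 and 2, with a geometric mean of 1.45 over the 5. RpL10Ab had 0.801, 0.977 and 0.836 in Polr3D EY/+ flies, against 1.016 and 0.794 in wild-type flies, with a geometric mean of 0.880. RpS19a had 0.804, 0.658 and 0.750 in Polr3D EY/+ flies, against 0.668 and 0.838 in wild-type flies, with a geometric mean of 0.740. RpS10b had 0.625, 0.567 and 0.554 in Polr3D EY/+ flies, against 0.699 and 0.592 in wild-type flies, with a geometric mean of 0.605. RpL22 lay above the other 3 in every pair of libraries. The genotypes overlapped for all 4 general copies, and did not overlap for 17.0% of 7624 genes. Libraries were matched by number alone, and the deviations of same-numbered libraries did not go together, as given in the last section.

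The 77 other cytosolic ribosomal protein genes that averaged 10 counts or more in both assays had a median of 0.594 footprints per RNA, against 1.21 over 7624 protein-coding genes. Of those 77, 4 had a higher ratio than RpL22, 9 than RpL10Ab, 20 than RpS19a and 35 than RpS10b. RpL22 stood at the 59.75th percentile of all those genes, RpL10Ab at the 33.33rd, RpS19a at the 25.93rd and RpS10b at the 18.57th. In RNA per kilobase 74 of the 77 were above RpL22, 50 above RpL10Ab, 48 above RpS10b and 29 above RpS19a, so RpL22 was among the less abundant ribosomal protein mRNAs.

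**Figure D3:**
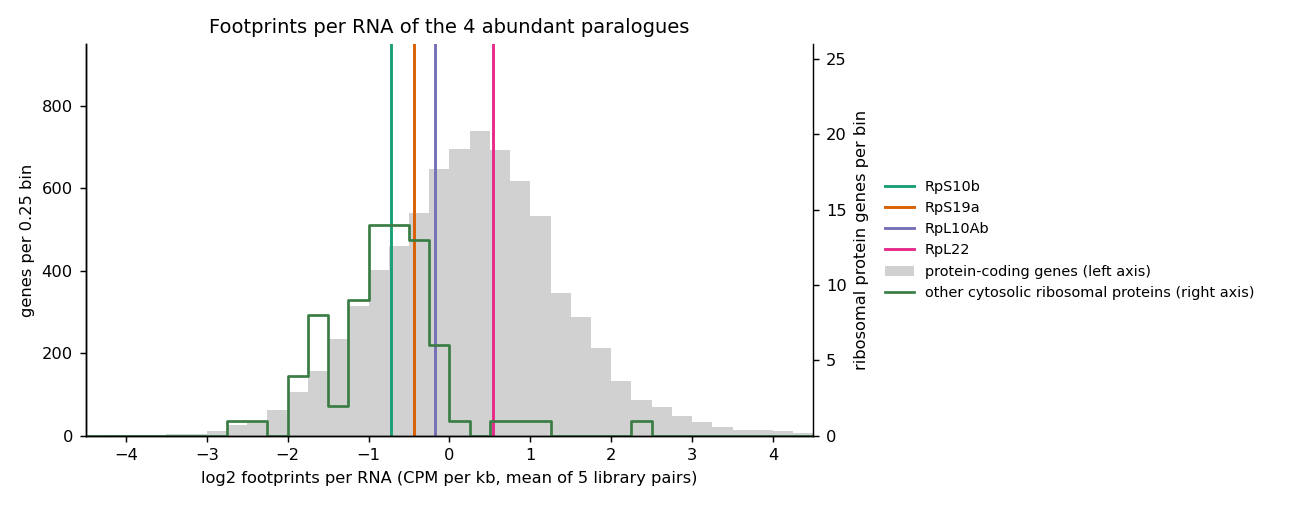
Log2 footprints per RNA (CPM per kilobase, mean of 5 library pairs) of the 4 general copies as vertical lines, over the number of protein-coding genes per bin (grey bars, left axis, 7624 genes) and of other cytosolic ribosomal protein genes (green outline, right axis, 77 genes). RpS10b lies near the middle of the other ribosomal proteins, at a ratio of 0.605, while RpL22 at 1.45 lies to the right of all but 4 of them.

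Other duplicated ribosomal protein genes of the table give a scale for these pairs. RpS14b had 0.253 to 0.374 counts for each RpS14a count in footprints and 0.204 to 0.252 in RNA, and RpS15Ab had 0.0523 to 0.134 for each RpS15Aa count in footprints and 0.0204 to 0.0231 in RNA, with no overlap in either pair. For RpL34a over RpL34b and RpL7-like over RpL7 the ranges overlapped between the assays. RpS28a and RpL37-2 resembled the low germline-enriched copies, with 0 footprint counts each and 5 and 11 RNA counts in all. A higher ratio of the less abundant copy in footprints was therefore seen in pairs other than RpS10 too.

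Between genotypes, 0 of the 8 members were called at an adjusted p under 0.1 in RNA, footprints or translation efficiency, the change of footprints relative to RNA. DESeq2 gave RpL10Aa no adjusted p in RNA and translation efficiency. It called 0.94% of all genes in RNA, 0.362% in footprints and 0.285% for translation efficiency, and at an unadjusted p under 0.05 RpS10a in RNA was the only member, beside 1.61% of all genes in RNA, 2.92% in footprints and 1.65% for translation efficiency. In edgeR, which called 0.0458% of genes in RNA, 0.0183% in footprints and 0 for translation efficiency, 0 of the 6 members that passed its count filter (all but RpL22-like and RpL10Aa) were called, and again RpS10a in RNA alone had an unadjusted p under 0.05, at 0.0199, beside 1.39% of genes in RNA, 5.05% in footprints and 2.71% for translation efficiency. Of the 79 other cytosolic ribosomal protein genes 0 were called in each of the 3 contrasts by DESeq2 and by edgeR (at an unadjusted p under 0.05, 2 by DESeq2 and 1 by edgeR in footprints, 0 in the other contrasts). Their median log2 changes were -0.003 in RNA, -0.04 in footprints and -0.03 for translation efficiency, and those of all genes were 0, -0.06 and -0.03.

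The DESeq2 model left out wild-type replicate 3. Its log2 changes of the 4 general copies in RNA ran from -0.05 (SE 0.19) for RpL22 to 0.07 (SE 0.14) for RpS19a. In footprints RpL22 was at -0.29 (95% interval -0.68 to 0.08), RpS10b at -0.11 (-0.40 to 0.17), RpL10Ab at -0.04 (-0.31 to 0.22) and RpS19a at 0.07 (-0.22 to 0.36). In translation efficiency RpL22 was at -0.24 (-0.75 to 0.27), the others lying between -0.14 and -0.001. A p that misses the threshold does not show equal levels, and these intervals bound the changes that the libraries allow.

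In CPM, 0 of the 4 general copies separated the genotypes in footprints, where 12.1% of 7624 genes did not overlap, and 0 of the 4 in RNA, where 9.55% did not. The nearest to it was RpL22 in footprints, at 745 ± 43.6 CPM in Polr3D EY/+ and 912 ± 129 CPM in wild-type libraries (SD, n = 3 each, exact permutation p = 0.2). The female germline markers summed to less in the footprints of every Polr3D EY/+ library than of any wild-type library, as given above, with 0 of the 18 called (2 at an unadjusted p under 0.05, in DESeq2 as in edgeR). The 12 markers of follicle cells, the somatic cells around the egg chambers, summed to 33560 to 37510 CPM of footprints in Polr3D EY/+ libraries and to 29900 to 35130 CPM in wild-type libraries, which overlap. Their 12 fitted footprint changes were all above 0 (median 0.23), with 0 called and 4 at an unadjusted p under 0.05 in DESeq2 (1 in edgeR). The part of either cell type in the members' values was not tested.

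**Figure D4:**
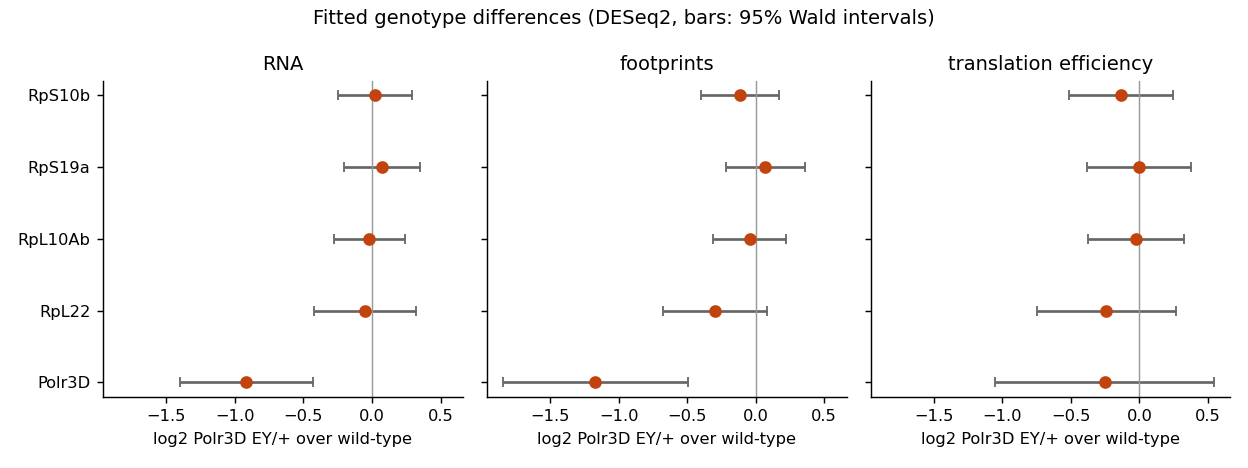
Fitted log2 changes of Polr3D EY/+ over wild-type for the 4 general copies and Polr3D, in RNA, footprints and translation efficiency (DESeq2, points with 95% Wald intervals, grey line at no change). All 12 intervals of the general copies include 0, whereas those of Polr3D lie below 0 in RNA (-0.92) and footprints (-1.17). The intervals are not adjusted for the number of genes, and the footprint change of Polr3D was not called (DESeq2 adjusted p = 0.158).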

How the data were processed

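The authors trimmed the reads with Cutadapt and quantified them with Salmon against a BDGP6.32 transcriptome, with a shorter k-mer for Ribo-Seq. The deposited values are estimated counts per transcript, rounded to whole numbers, that is, expected counts. Salmon divides reads that match several transcripts, so counts of similar paralogues are uncertain. Of 28367 features, 28345 matched the BDGP6 annotation and 22 did not. Transcripts were summed per gene. DESeq2 1.42.0 fitted replicate, genotype, assay and genotype:assay to 10 libraries (without wild-type replicate 3, removed by the study), with two-sided Wald tests and Benjamini-Hochberg adjustment over all genes, called at an adjusted p under 0.1. edgeR 4.0.16 was an alternative. Pair ratios were log2 values with a pseudocount of 0.5 counts, compared over all 11 libraries by two-sided exact permutation in scipy 1.17.1. The scripts were tested on simulated data. The rule for named genes took the members (8 of 10 are named, since 1 of the 5 pairs is not reported here), Polr3D, called ribosomal proteins with the largest changes (0 were called) and other duplicated pairs. Members and lists were chosen with earlier results of these data known. Promoter and protein sequences were not used here.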

Additional observations from a re-analysis of the deposited data

How the results depend on the processing

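Of 176 changes of the 4 general copies between genotypes under the alternatives, 0 were called (smallest adjusted p = 0.779). Whole-table counts moved with the settings. In RNA, 135 genes were called, against 5 with edgeR, 23 among genes averaging 10 counts or more in both assays, 66 with all 11 libraries, 4 when Polr3D EY/+ replicate 1 was left out of RNA-Seq, 41 with no replicate block, 3 with each assay alone, 512 with single transcripts, and 5 to 50 when 1 replicate was left out. In footprints, 52 were called, against 2 with edgeR, 10 with that count filter, 24 without that library, 0 with each assay alone (42 at an unadjusted p under 0.05), 821 with single transcripts, and 2 to 33 by replicate. In translation efficiency, 41 were called, against 0 with edgeR (296 at an unadjusted p under 0.05), 1 with that filter, 10 with all 11 libraries, 2 without that library, 7 with no replicate block, 540 with single transcripts, and 0 to 19 by replicate. The RNA call of Polr3D was lost in edgeR (adjusted p = 0.455), with each assay alone and whenever 1 replicate or that library was left out, over alternatives with adjusted p of 7.53e-07 to 1.0, while its log2 change stayed at -0.909 in edgeR and -0.938 to -0.892 by replicate. The cause was not tested.

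Signs of the small, uncalled changes were not stable. Leaving out 1 replicate gave ranges in RNA of -0.158 to 0.202 for RpS10b, -0.134 to 0.281 for RpS19a, -0.153 to 0.06 for RpL22 and -0.08 to 0.046 for RpL10Ab. In footprints these were -0.341 to 0.12 for RpS10b, -0.02 to 0.166 for RpS19a and -0.155 to 0.071 for RpL10Ab. In translation efficiency they were -0.173 to 0.158 for RpS19a, -0.536 to 0.054 for RpL22 and -0.202 to 0.151 for RpL10Ab. RpS19a in footprints was -0.081 with all 11 libraries, and in translation efficiency, at -0.001 in the reported model, 0.005 in edgeR, 0.008 with TMM factors, 0.001 with no replicate block and 0.002 with single transcripts. RpL22 in RNA was 0.038 with no replicate block, and RpL10Ab in translation efficiency 0.013 when Polr3D EY/+ replicate 1 was left out of RNA-Seq.

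Deviations of same-numbered RNA-Seq and Ribo-Seq libraries from their group means correlated at -0.108 to -0.024. Libraries of different numbers were not compared, so this does not decide whether the numbers pair libraries. Between the 2 genotypes, deviations of same-numbered libraries (numbers 1 and 2) correlated at -0.578 in RNA-Seq and -0.06 in Ribo-Seq. The replicate term of the DESeq2 model uses these numbers. With the numbers as a replicate block over 5 pairs of libraries, footprints minus RNA was 6.101 for RpS10 and 2.128 for RpS19 on the log2 scale, each at an exact sign-flip p of 0.0625, the smallest that 5 pairs allow. Leaving out 1 replicate gave 5.203 to 6.449 for RpS10, each at an exact permutation p of 0.0159, a separation that the pseudocount alone would give. The most abundant transcript alone gave 9.741, with 98.7% of the RNA counts of RpS10b but 7.5% of its footprint counts. The RpS19 difference ranged from 1.538 to 2.228 when 1 replicate was left out, losing its unadjusted call without Polr3D EY/+ replicate 1 or 2 or wild-type replicate 2. It was 4.117 by the most abundant transcript, 3.664 with a pseudocount of 5 and 0.05406 percentage points as a share, an alternative chosen after seeing the data, as was leaving out that RNA-Seq library in the pair tests. The transcript used for RpS19b held 29.6% of its RNA counts and 100.0% of its footprint counts. Between genotypes, leaving out 1 replicate gave -0.434 to 0.326 for RpS10 in footprints and -0.384 to 1.026 for RpS19 in RNA, and by the most abundant transcript the RpS19 difference was -1.599. For the germline-enriched copies, counts of at most 18 in a library leave large counting errors.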
